A study of Mus musculus with 30 samples.

Results

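The genes described here are 7 matrix metalloproteinases, Mmp2, Mmp3, Mmp9, Mmp10, Mmp12, Mmp13 and Mmp14, and 3 of their tissue inhibitors, Timp1, Timp2 and Timp3, measured in mouse fibroblasts exposed to small molecules. They were chosen by symbol, 10 of the 29861 genes listed, and all 10 passed the filter on low values. Mmp12 was chosen for its high level with Podofilox, so every comparison of Podofilox with DMSO is a description with no test. RNA sequencing was done on CCG-HTA-1, a primary tail fibroblast line from UMHet3 mice, a genetically mixed stock, at passage 4, collected 48 hours after a compound was added. The groups were DMSO, the solvent, with 6 libraries, and 8 compounds with 3 libraries each, 30 in all. Of these, Antimycin A and Dihydrorotenone inhibit mitochondrial respiration, and the others were Diphenyleneiodonium Cl, which blocks flavoenzymes, BerberineA as the labels spell it, Clofilium tosylate, a potassium channel blocker, Cardamonin, a plant chalcone, AEG 3482, and Podofilox, which blocks tubulin polymerisation. All groups shared the line, the passage and a high-glucose medium without pyruvate, and doses are not given in the sources used here. Donor mice were 5 to 8 weeks old per the labels, except 8 to 11 weeks for Dihydrorotenone replicate 1. Because all libraries come from 1 line and the labels do not describe separate cultures, p-values measure the spread between libraries, which may be technical.

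Matrix metalloproteinases are zinc enzymes, made as inactive precursors, that cut collagens, proteoglycans and other proteins outside the cell. Stromelysins such as Mmp3 and Mmp10 have broad substrates and can activate other family members, collagenases such as Mmp13 open the collagen triple helix, gelatinases such as Mmp2 and Mmp9 digest denatured collagen and basement membrane, and Mmp14 is anchored in the cell membrane, where it activates the Mmp2 precursor together with Timp2. Timps bind the active site and block it. In fibroblasts, Mmp3 and Mmp13 are classic targets of the transcription factor AP-1 and of inflammatory cytokines. Transcript levels report neither the activation of the precursors nor the enzyme activity.

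Levels are in TPM, transcripts per 1000000, which is scaled by transcript length, so levels of different genes can be set side by side. Changes are differences of mean log2(TPM + 1), with the standard error (SE), from a limma fit of all 13644 genes that reached 1 TPM in at least 3 libraries. A gene is said to have risen or fallen where the Benjamini-Hochberg adjusted p over all these genes was under 0.05. Sequencing depth is unknown from TPM. Each library had 12229 to 12700 genes at 1 TPM or more. The 8 comparisons with DMSO share the same 6 libraries. Library numbers ran consecutively within groups, so compound and library batch cannot be told apart. In bulk RNA, fewer cells of a type and less RNA per cell cannot be told apart either. All 10 fibroblast markers reached 1 TPM in every library, while 7 of 8 keratinocyte, 7 of 7 muscle and 6 of 8 endothelial markers stayed under 1 TPM in every library. Of the neutrophil markers 4 of 8 did so, and their sum, mostly Camp, was between 28.1 and 45.6 TPM with DMSO and between 10.3 and 13.4 with AEG 3482. Of the chondrocyte and osteoblast markers 3 of 10 did so, and their sum, mostly Comp, was between 314 and 349 TPM with DMSO and between 176 and 213 with Cardamonin. The part of these markers in the results was not tested.

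Mmp13, Mmp12, Mmp3 and Mmp10 lie in this order, all on the plus strand, in a group of 10 Mmp genes that spans 427 kb of chromosome 9 (chr9:7272514-7699585, GRCm38). Their promoters are shown because these neighbours took different levels in the same libraries. RefSeq promoters (GRCm38.p6) were matched for 8 of the 10 genes, and Mmp2 and Mmp9 had no entry. The 250 bases before the start are given 5′ to 3′ on the plus strand for Mmp13 (chr9:7272264-7272513), Mmp12 (chr9:7347124-7347373, the second of 2 starts in the table), Mmp3 (chr9:7445572-7445821) and Mmp10 (chr9:7502092-7502341). Capitals mark matches to 4 motifs searched on both strands. These are the AP-1 motif TGAGTCA, the ETS motif AGGAAG, the TATA box TATAAA, and the core of the antioxidant response element, TGACNNNGC. An AP-1 match on the opposite strand can overlap the last of these, and none did here.
Mmp13: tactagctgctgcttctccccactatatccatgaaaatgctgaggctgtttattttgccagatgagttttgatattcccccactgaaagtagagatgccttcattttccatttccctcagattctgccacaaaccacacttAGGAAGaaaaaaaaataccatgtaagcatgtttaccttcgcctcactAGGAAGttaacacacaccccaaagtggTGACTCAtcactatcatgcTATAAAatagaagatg
Mmp12: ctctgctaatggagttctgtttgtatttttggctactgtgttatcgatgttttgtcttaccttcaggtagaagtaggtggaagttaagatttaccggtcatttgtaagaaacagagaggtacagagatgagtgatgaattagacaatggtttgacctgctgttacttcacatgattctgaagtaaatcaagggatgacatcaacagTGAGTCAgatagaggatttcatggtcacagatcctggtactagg
Mmp3: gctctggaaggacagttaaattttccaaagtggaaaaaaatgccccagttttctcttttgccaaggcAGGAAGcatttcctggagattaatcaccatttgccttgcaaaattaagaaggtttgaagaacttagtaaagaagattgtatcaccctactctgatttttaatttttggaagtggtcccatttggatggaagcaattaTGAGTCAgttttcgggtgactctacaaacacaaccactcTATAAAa
Mmp10: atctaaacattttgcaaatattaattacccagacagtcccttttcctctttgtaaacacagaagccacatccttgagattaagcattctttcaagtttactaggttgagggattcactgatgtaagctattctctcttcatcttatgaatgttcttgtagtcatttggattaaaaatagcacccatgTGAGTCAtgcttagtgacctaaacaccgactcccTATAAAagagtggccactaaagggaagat

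Each of these 4 stretches holds 1 exact AP-1 match, which begins 35 bases before the start in Mmp13, 44 in Mmp12, 46 in Mmp3 and 63 in Mmp10. The other Mmp12 start (position 7344397) had none in its window, and TPM per gene does not say which start was used. Over 32851 promoters of the same table, searched from 250 bases before to 50 after the start, 5.2% held an AP-1 match, 35.4% an ETS match, 13.6% a TATA box and 12.4% the antioxidant response element core. A TATA box lay before the start in Mmp13, Mmp3 and Mmp10. In Mmp12 a TATA box match began 4 bases after the start shown, inside the searched window but outside the printed bases. Of the 6 other Mmp genes of the chromosome 9 group, 3 held an AP-1 match at a start. Mmp14, Timp1, Timp2 and Timp3 held none, and of the matched genes only Timp2 held the antioxidant response element core. A match is a string of letters in the window and not a measured binding site.

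Mmp3 (stromelysin 1, chr9:7445822-7455975) was among the most abundant transcripts of these fibroblasts. It ranked between 2 and 7 of all genes in every library and took 0.82% to 2.86% of the listed TPM. The DMSO libraries held between 20920 and 22770 TPM, with a median of 22160. The AEG 3482 libraries held 8342, 7995 and 7618 TPM, all below every other library of the study. Mmp3 fell by 1.47 on the log2 scale with AEG 3482 (SE 0.0604, adjusted p = 7.49e-17). Cardamonin gave 14940, 14250 and 11850 TPM, a change of -0.70 (adjusted p = 1.28e-10), with replicate 3 the lowest. Podofilox gave 25140, 26710 and 26570 TPM, all above every DMSO library, a difference of 0.25 that was 0 under quantile normalization. Mmp3 also fell with the other 5 compounds, with mean levels from 14310 ± 465 TPM (SD, n = 3) with BerberineA to 18080 ± 1320 (SD, n = 3) with Clofilium tosylate, and no library of these 5 reached the DMSO range. In the order of group means, Clofilium tosylate, Dihydrorotenone, Antimycin A, Diphenyleneiodonium Cl, BerberineA and Cardamonin each overlapped the next, while Podofilox, DMSO and AEG 3482 stood clear of their neighbours. The calls with Dihydrorotenone and Clofilium tosylate were lost under quantile normalization (adjusted p = 0.0972 and 0.0677). Quantile normalization sets a value by the gene's rank in its library, which for Mmp3 was always between 2 and 7. It gave the same -0.317 with Antimycin A, Diphenyleneiodonium Cl and BerberineA. Hence neither these losses nor the 0 with Podofilox measure the size of the Mmp3 changes. Without the filter on low values, the calls with 5 compounds, all but Cardamonin and AEG 3482 of the 7 tested, were lost (0.127 to 0.713), though not when the intensity trend was dropped as well.

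Mmp10 (stromelysin 2, chr9:7502352-7510240) was the closest relative of Mmp3 by shared sequence and stood far lower. With DMSO it lay between 24.7 and 40.3 TPM, with a median of 33.0. Podofilox gave 212, 190 and 186 TPM, all above every other library of the study, a difference of 2.58 on the log2 scale. Antimycin A gave 45.7, 47.3 and 44.3 TPM, all above the DMSO range, and Mmp10 rose by 0.51 (SE 0.118, adjusted p = 0.00123). In Dihydrorotenone, Diphenyleneiodonium Cl, BerberineA and Clofilium tosylate, Mmp10 overlapped DMSO and did not pass the test. Its rise with Cardamonin (0.28, adjusted p = 0.0361) and its fall with AEG 3482 (-0.30, adjusted p = 0.0278) came with ranges that overlapped DMSO. The Cardamonin call was lost under 3 other scalings (adjusted p from 0.0652 to 0.194) and without Cardamonin replicate 1 (0.05), 2 (0.0853) or 3 (0.105) or DMSO replicate 3 (0.0785) or 5 (0.0911), as well as without the filter (0.089) and with 2 groups fitted (0.0795). The AEG 3482 call was lost without AEG 3482 replicate 1 (0.128) or 2 (0.11) or DMSO replicate 2 (0.0543) or 6 (0.0687), as well as without the filter (0.0712) and with 2 groups fitted (0.0872). Of the 31-base stretches of Mmp10 transcripts, 11.9% also occur in Mmp3, and 11.4% of those of Mmp3 occur in Mmp10, so reads from these stretches could be split between both genes.

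Mmp12 (macrophage metalloelastase, chr9:7344381-7369499) had the widest range of the 10 genes, 52.3 times between its highest and lowest library. Its 6 DMSO values ran from 22.5 to 31.6 TPM, with a median of 26.9. Podofilox gave 647, 746 and 731 TPM, a difference of 4.69 on the log2 scale, the value for which the gene was chosen. Cardamonin gave 65.2, 56.1 and 58.8 TPM, all above DMSO and all below Podofilox. The rise with Cardamonin was 1.15 (SE 0.102, adjusted p = 1.67e-10). Mmp12 fell with 5 compounds, Dihydrorotenone (-0.60), Diphenyleneiodonium Cl (-0.67), BerberineA (-0.71), Clofilium tosylate (-0.42) and AEG 3482 (-0.70), and every library of these 5 lay below the DMSO range. Their means ran from 15.8 ± 0.869 TPM (SD, n = 3) with BerberineA to 19.5 ± 1.76 (SD, n = 3) with Clofilium tosylate, and each of these groups overlapped the next. Antimycin A gave 27.8, 24.4 and 33.6 TPM and overlapped DMSO (0.10, 95% interval -0.11 to 0.31, adjusted p = 0.482).

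Mmp12 takes its common name from macrophages, so their markers were read beside it. Of 12 macrophage markers, 3 reached 1 TPM in every library and 4 stayed under 1 TPM in every library. Their summed level was between 160 and 218 TPM with DMSO, between 89.6 and 104 with Podofilox, between 113 and 132 with Cardamonin, and with AEG 3482, where Mmp12 fell, between 120 and 129. Lyz2 made up most of this sum, with means of 157 TPM with DMSO, 71.5 with Podofilox and 84.2 with Cardamonin. The markers did not move together. Of the 7 tested, 5 fell and 1 rose with Cardamonin, beside 33% and 37.3% of all genes. There Adgre1 went from 10.4 to 1.91 TPM and Csf1r from 2.98 to 0.888, while Cd68 went from 13.1 to 33.1, a rise of 1.26 (adjusted p = 1.16e-11). Where Mmp12 did not rise, 6 fell with AEG 3482, 5 with Antimycin A and 5 with Diphenyleneiodonium Cl (26.8%, 15.5% and 11.7% of all genes). With Dihydrorotenone, BerberineA and Clofilium tosylate 4 fell each (9.43%, 9.16% and 12.5%), and with BerberineA 1 rose (12.6% of all genes higher). With Podofilox the means were 3.35 TPM for Adgre1, 2.96 for Csf1r and 14.4 for Cd68. The part of these markers in the Mmp12 levels was not tested. Mmp12 overlaps Mmp1b, which runs on the opposite strand, over 1261 bases, and shares 1.77% of its 31-base stretches with it. Mmp1b was listed at no more than 4.34 TPM in any library. The effect of shared reads on the Mmp12 levels was not tested. Mmp12 shares 6.59% of its 31-base stretches with other genes.

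Mmp13 (collagenase 3, chr9:7272514-7283331) followed Mmp3 in most groups. The DMSO libraries held between 1143 and 1432 TPM, with a median of 1251. AEG 3482 gave 348, 314 and 306 TPM and Cardamonin gave 561, 553 and 357 TPM, all far below DMSO. The changes were -1.98 with AEG 3482 (SE 0.104, adjusted p = 9.77e-15) and -1.40 with Cardamonin (SE 0.104, adjusted p = 5.66e-12). Mmp13 also fell with the other 5 compounds apart from Podofilox, by 0.45 with Dihydrorotenone to 0.71 with BerberineA, and no library of these overlapped DMSO. Podofilox gave 1415, 1269 and 1323 TPM, within the DMSO range. Thus with Podofilox the 4 neighbours gave differences of 0.07 for Mmp13, 4.69 for Mmp12, 0.25 for Mmp3 and 2.58 for Mmp10. With Cardamonin, Mmp13 and Mmp3 fell while Mmp12 rose, and Mmp12 went from 0.0208 ± 0.00203 of the Mmp13 level with DMSO (SD, n = 6) to 0.127 ± 0.0332 (SD, n = 3). The plot of these genes by library shows the 4 patterns side by side.

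**Figure D1:**
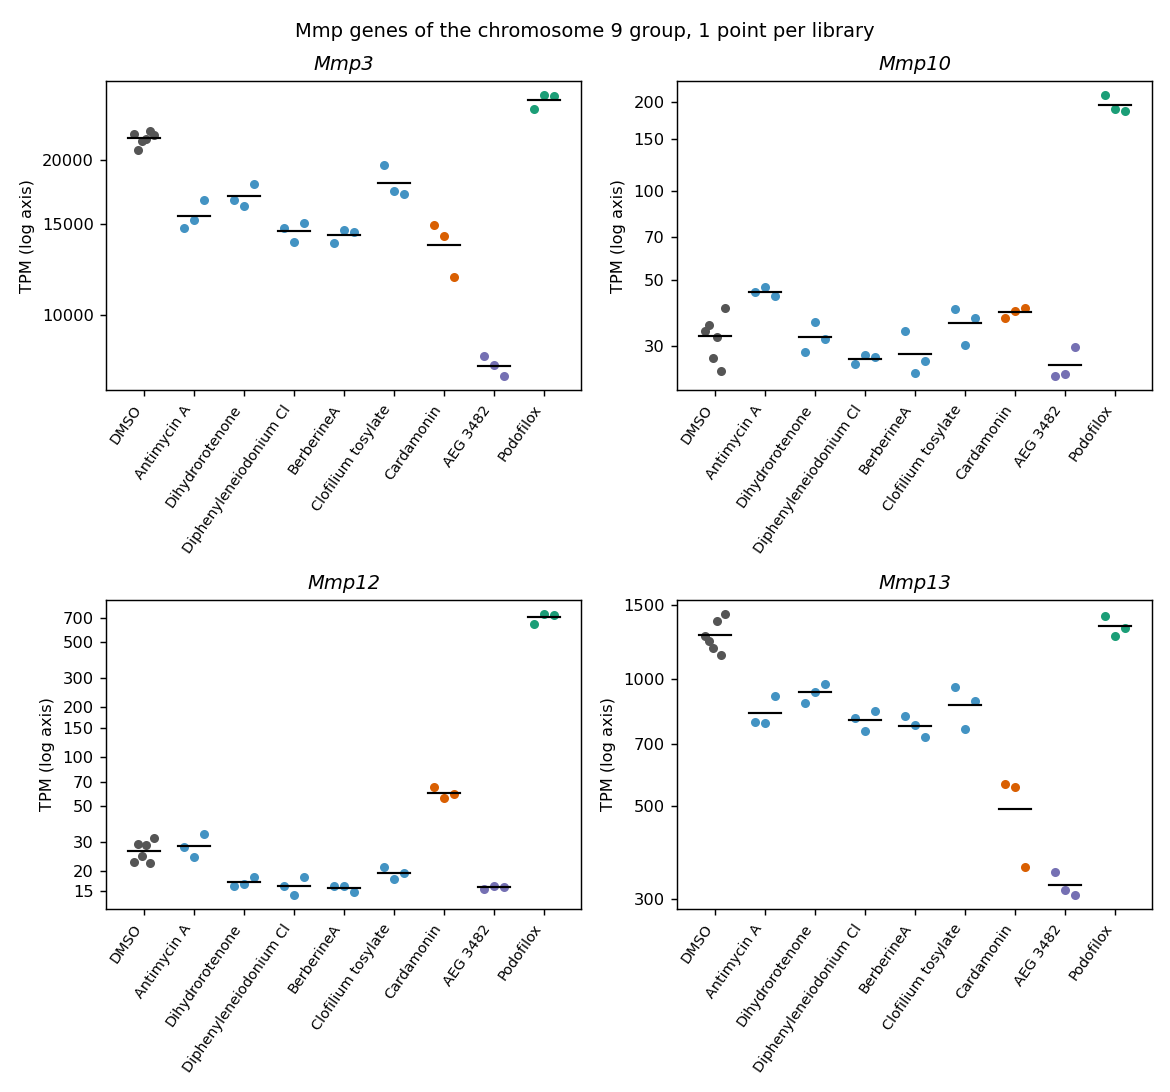
TPM (log axis) of Mmp3, Mmp10, Mmp12 and Mmp13 in each library by group, with 1 point per library and a bar at the group mean. Mmp12 and Mmp10 are highest with Podofilox, at means of 708 and 196 TPM, while Mmp3 and Mmp13 are lowest with AEG 3482, at means of 7985 and 322 TPM.

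Mmp9 (gelatinase B, chr2:164940780-164955850) was highest in DMSO, where the libraries held between 216 and 276 TPM, with a median of 242. It fell with all 7 compounds tested. AEG 3482 gave 41.5, 35.8 and 37.0 TPM, a change of -2.64 (SE 0.0892, adjusted p = 1.42e-18), the largest fall among the 10 genes. Cardamonin gave 63.2, 69.5 and 53.8 TPM, a change of -1.95 (SE 0.0892, adjusted p = 3.12e-16). Antimycin A gave 116, 122 and 134 TPM, a change of -0.96 (adjusted p = 3.87e-09). Podofilox gave 106, 82.8 and 96.6 TPM, below every DMSO library, so Mmp9 was low in the group where Mmp10 and Mmp12 were high. From BerberineA downwards in the order of means, no group overlapped the next: BerberineA, Antimycin A, Podofilox, Cardamonin and AEG 3482 had means of 150, 124, 95.2, 62.2 and 38.1 TPM. The fall was smallest with Clofilium tosylate (-0.29, adjusted p = 0.0191) and Dihydrorotenone (-0.35, adjusted p = 0.00838). The former call was lost without Clofilium tosylate replicate 1 (adjusted p = 0.063) or replicate 3 (0.0653) or without the filter (0.053), the latter without Dihydrorotenone replicate 1 (0.111) or with only these 2 groups fitted (0.0555).

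Mmp2 (gelatinase A, chr8:92827291-92853420) moved differently from Mmp9. With DMSO it lay between 896 and 1096 TPM, with a median of 1004. Cardamonin gave 685, 763 and 562 TPM, all below DMSO, a change of -0.59 (SE 0.0777, adjusted p = 2.46e-07). AEG 3482 gave 976, 1005 and 954 TPM, within the DMSO range (-0.03, 95% interval -0.19 to 0.13, adjusted p = 0.757). Mmp2 rose with Antimycin A (0.32, adjusted p = 0.00197) and Diphenyleneiodonium Cl (0.30, adjusted p = 0.00518), where every library lay above DMSO, although the former was lost under quantile normalization (adjusted p = 0.0784). Its rise with Dihydrorotenone (0.24, adjusted p = 0.04) overlapped DMSO and was lost when any of 5 single libraries was left out: Dihydrorotenone replicate 2 (adjusted p = 0.174) or 3 (0.126) and DMSO replicate 1 (0.0709), 3 (0.0663) or 5 (0.0851). It was also lost under quantile normalization (0.20), without the filter (0.101) and with only these 2 groups fitted (0.077). BerberineA and Clofilium tosylate gave 0.20 each and did not pass (0.0707 and 0.0628), but passed without DMSO replicate 6 (0.0416 and 0.0359), and BerberineA also without its replicate 1 (0.0282), Clofilium tosylate also without DMSO replicate 4 (0.0496) and under median-ratio scaling (0.0334). Podofilox gave 1306, 1220 and 1180 TPM, all above DMSO.

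Mmp14 (membrane type 1, chr14:54431612-54445364) was higher than DMSO with most compounds. Its 6 DMSO values ran from 538 to 638 TPM, with a median of 580. Antimycin A gave 864, 763 and 870 TPM, a rise of 0.50 (SE 0.0738, adjusted p = 5.94e-06). It also rose with Clofilium tosylate (0.34), Diphenyleneiodonium Cl (0.31) and BerberineA (0.30), all 3 with every library above DMSO. Dihydrorotenone gave 593, 731 and 711 TPM and missed the threshold (0.20, adjusted p = 0.0676), but passed without its replicate 1, the low library (0.30, adjusted p = 0.0175), without DMSO replicate 4 (0.0488) or 6 (0.0417), and under median-ratio scaling (0.012). AEG 3482 gave 485, 501 and 459 TPM, all below DMSO, a change of -0.29 (adjusted p = 0.00137). Cardamonin overlapped DMSO (-0.08, adjusted p = 0.369). Podofilox gave 928, 854 and 870 TPM, the highest mean of the 9 groups, which overlapped that of Antimycin A.

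Timp1 (chrX:20870166-20874735), the most abundant inhibitor in the control cells, fell with all 7 compounds tested. The DMSO libraries held between 2679 and 3260 TPM, with a median of 2898, above every library of every compound. Cardamonin gave 1282, 1516 and 829 TPM, a change of -1.33 (SE 0.104, adjusted p = 1.74e-11), with replicate 3 well below the other two. AEG 3482 gave 1762, 1723 and 1656 TPM, a change of -0.78 (SE 0.104, adjusted p = 3.08e-07). With Antimycin A, Dihydrorotenone, Diphenyleneiodonium Cl, BerberineA and Clofilium tosylate the falls were between 0.41 and 0.56, with means from 2004 to 2221 TPM. Podofilox gave 2328, 2465 and 2035 TPM.

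Timp3 (chr10:86300372-86349506), an inhibitor bound to the matrix that also blocks several ADAM proteases, fell with all 7 compounds tested as well. With DMSO it lay between 143 and 175 TPM, with a median of 157. Cardamonin gave 38.8, 34.2 and 25.5 TPM, a change of -2.24 (SE 0.106, adjusted p = 5.89e-16). AEG 3482 gave 77.1, 74.7 and 69.7 TPM (-1.08, adjusted p = 1.62e-09), and Antimycin A gave 84.9, 69.7 and 70.2 TPM (-1.06, adjusted p = 1.26e-08). Podofilox gave 46.1, 50.4 and 51.9 TPM, between Cardamonin and AEG 3482 and clear of both. The remaining 4 compounds had means between 94.4 and 112 TPM, and no library of any compound reached the DMSO range. Timp3 lies inside Syn3 on the opposite strand and shares 21.1% of its 31-base stretches with it. Syn3 itself was listed at no more than 1.0 TPM in any library, and the effect of shared reads on the Timp3 levels was not tested.

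Timp2 (chr11:118301069-118355740), the inhibitor that also takes part in activating the Mmp2 precursor, changed least, 1.59 times between its highest and lowest library. Its 6 DMSO values ran from 1443 to 1565 TPM, with a median of 1502. AEG 3482 gave 1748, 1708 and 1805 TPM, all above DMSO, a rise of 0.22 (SE 0.0479, adjusted p = 0.000221). Cardamonin gave 1233, 1299 and 1138 TPM, all below DMSO, a fall of 0.30 on the log2 scale (SE 0.0479, adjusted p = 4.61e-06). With AEG 3482 the ratio of Timp1 to Timp2 was 0.978 ± 0.0523 (SD, n = 3) against 1.97 ± 0.104 (SD, n = 6) with DMSO. Its fall with Clofilium tosylate (-0.14, adjusted p = 0.0317) was lost when Clofilium tosylate replicate 1 (adjusted p = 0.153) or 2 (0.0683), or DMSO replicate 2 (0.0521) or 6 (0.0547), was left out, and without the filter (0.0672). Timp2 did not pass the test with Antimycin A, Dihydrorotenone, Diphenyleneiodonium Cl or BerberineA, where changes lay between -0.12 and -0.01. The value with Antimycin A (adjusted p = 0.0591) passed under 3 other scalings (0.0117 to 0.0329) and without DMSO replicate 1 (0.0471). Podofilox gave 1427, 1400 and 1422 TPM, just under the DMSO range.

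**Figure D2:**
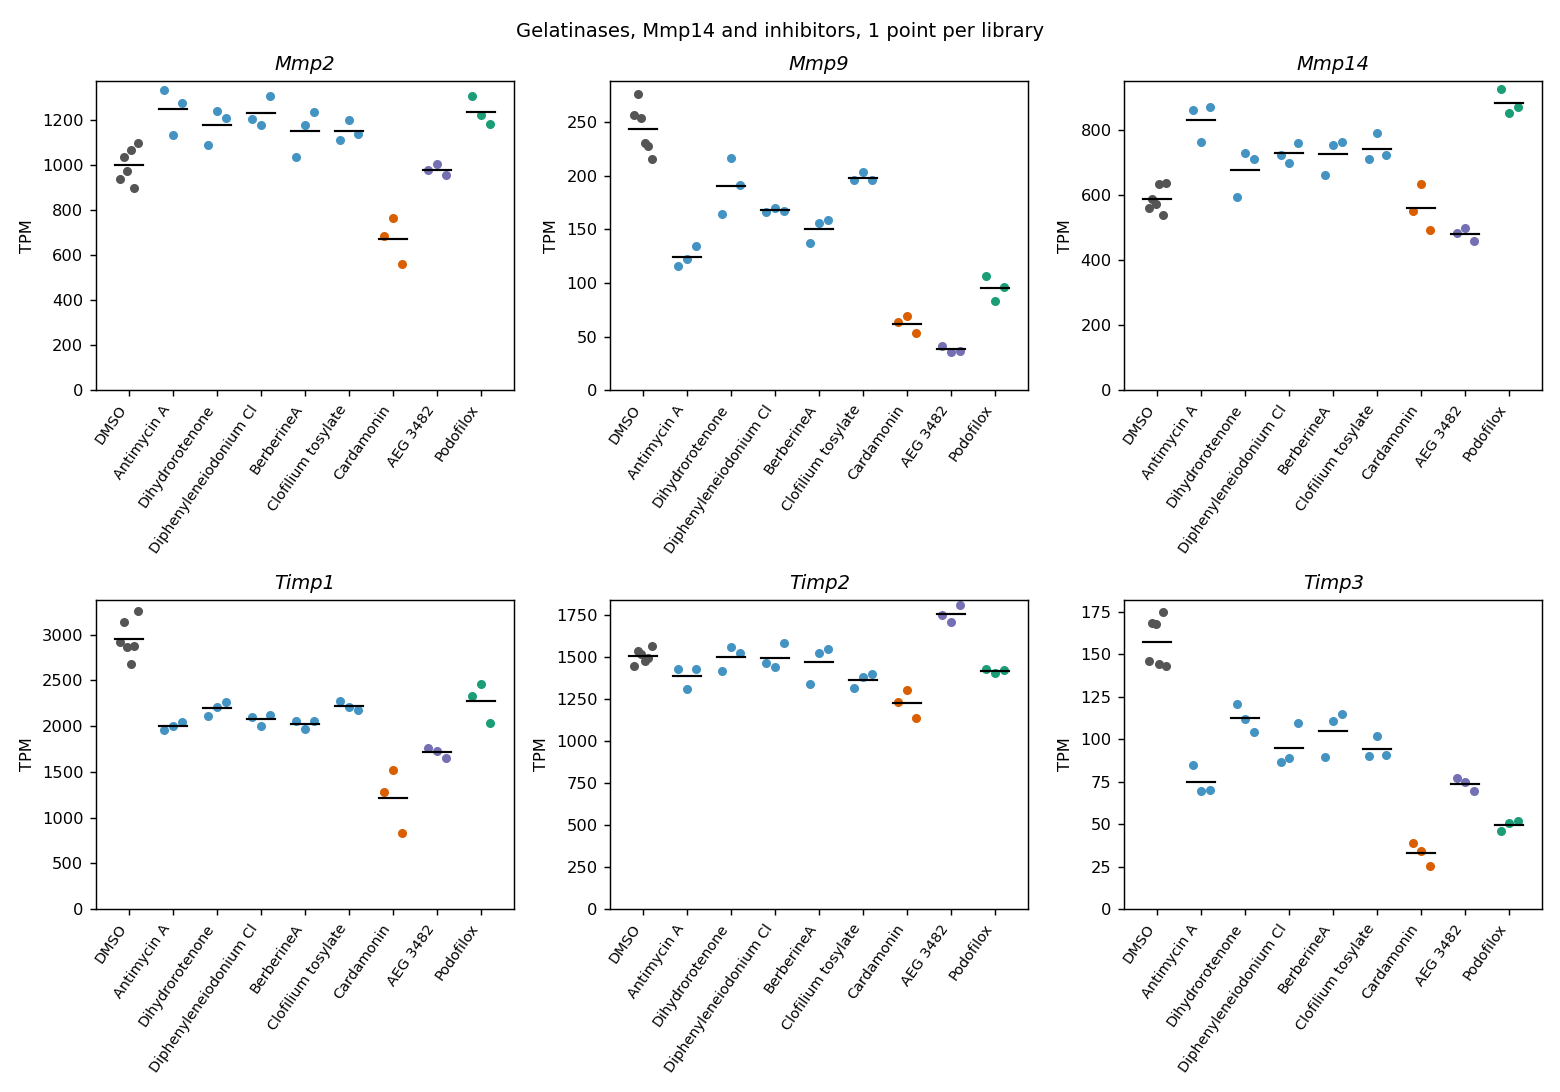
TPM (linear axis) of Mmp2, Mmp9, Mmp14, Timp1, Timp2 and Timp3 in each library by group, with 1 point per library and a bar at the group mean. Mmp9, Timp1 and Timp3 are highest with DMSO, at means of 243, 2957 and 158 TPM, while Mmp14 is highest with Podofilox, at 884 TPM, and Timp2 with AEG 3482, at 1754 TPM.

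Counted by compound, AEG 3482 changed 9 of the 10 genes, 1 higher (Timp2) and 8 lower, when 68.1% of all tested genes changed (41.3% higher, 26.8% lower). Cardamonin changed 9, 2 higher (Mmp12 and Mmp10) and 7 lower, against 70.3% of all genes (37.3% higher, 33% lower). With so many genes called, 9 of 10 is not far from the background. The median change was -0.74 with AEG 3482 and -0.64 with Cardamonin, beside 0.10 and 0.03 over all genes. Antimycin A changed 8, 3 higher (Mmp2, Mmp10, Mmp14) and 5 lower, against 37.3% (21.8% higher, 15.5% lower), with a median of -0.31 beside 0.03. Diphenyleneiodonium Cl changed 8, 2 higher (Mmp2, Mmp14) and 6 lower, against 25.7% (14% higher, 11.7% lower), with a median of -0.52 beside 0.02. Clofilium tosylate changed 8, 1 higher (Mmp14) and 7 lower, against 23.4% (10.9% higher, 12.5% lower), with a median of -0.29 beside -0.00015. BerberineA changed 7, 1 higher (Mmp14) and 6 lower, against 21.7% (12.6% higher, 9.16% lower), with a median of -0.56 beside 0.02. Dihydrorotenone changed 7, 1 higher (Mmp2) and 6 lower, against 14.4% (4.95% higher, 9.43% lower), with a median of -0.37 beside -0.03. With Podofilox, where no test is given, the differences were above 0 for Mmp2, Mmp3, Mmp10, Mmp12, Mmp13 and Mmp14 and below 0 for Mmp9, Timp1, Timp2 and Timp3, with a median of 0.07 over the 9 genes other than Mmp12 beside 0.04 over all genes. Mmp9, Timp1 and Timp3 were lower than DMSO with all 8 compounds and Mmp3 and Mmp13 with 7 of them.

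**Figure D3:**
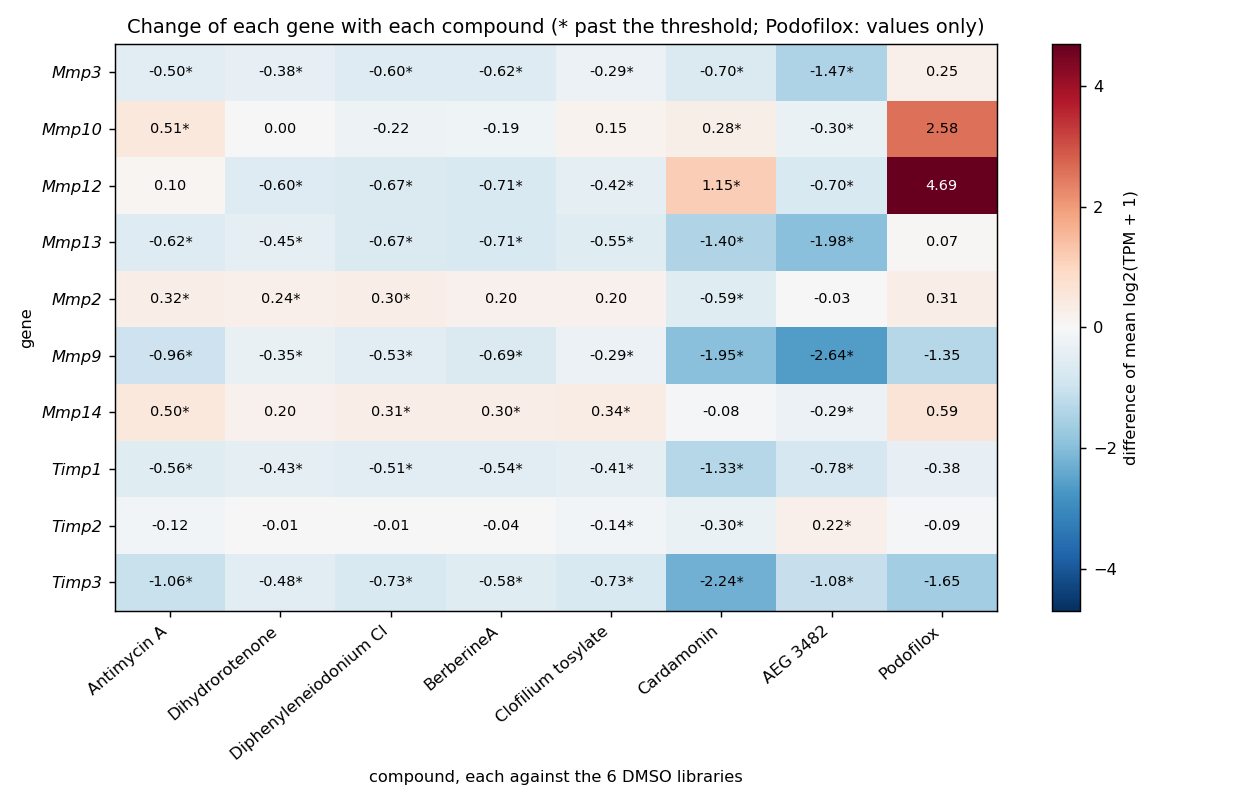
Difference of mean log2(TPM + 1) from DMSO for each of the 10 genes (rows) with each of the 8 compounds (columns), with the value in each cell and a star where the adjusted p was under 0.05. Timp1, Timp3 and Mmp9 are negative with every compound, the Mmp12 row runs from -0.71 to 4.69, and Podofilox carries values only.

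Because Mmp3 made up 80.8% to 88.9% of the summed level of the 7 metalloproteinases in every library, the sum is largely a reading of Mmp3. The ratio of the summed Mmp level to the summed Timp level was 5.47 ± 0.333 with DMSO (SD, n = 6), 2.78 ± 0.0986 with AEG 3482 (SD, n = 3), 6.37 ± 0.541 with Cardamonin (SD, n = 3) and 8.20 ± 0.545 with Podofilox (SD, n = 3). All AEG 3482 libraries lay below, and all Podofilox libraries above, every other library. The Cardamonin range (5.744 to 6.731) overlapped that of DMSO (4.98 to 5.886). The compounds not named here had means from 4.763 with BerberineA to 5.735 with Clofilium tosylate. Without Mmp3, the ratio was 0.686 ± 0.0529 with DMSO, 0.526 ± 0.0153 with AEG 3482, 0.766 ± 0.0222 with Cardamonin and 1.19 ± 0.0708 with Podofilox. The compounds not named here had higher means than Cardamonin, from 0.7895 with BerberineA to 0.8959 with Antimycin A. The Cardamonin range without Mmp3 (0.742 to 0.7859) overlapped that of DMSO (0.6283 to 0.784). The Podofilox ratios hold the Mmp12 level for which that gene was chosen, and without Mmp12 the ratio there was 8.01 ± 0.528, and 1.003 ± 0.0691 with Mmp3 left out too, beside 5.47 ± 0.333 and 0.681 ± 0.0524 with DMSO. Both numerator and denominator moved with Cardamonin, where the summed Mmp level was 15560 TPM against 25210 with DMSO and the summed Timp level was 2465 against 4618. With AEG 3482 the summed Mmp level was 9847 TPM and the summed Timp level 3541. These ratios are descriptions of transcript levels and carry no test.

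**Figure D4:**
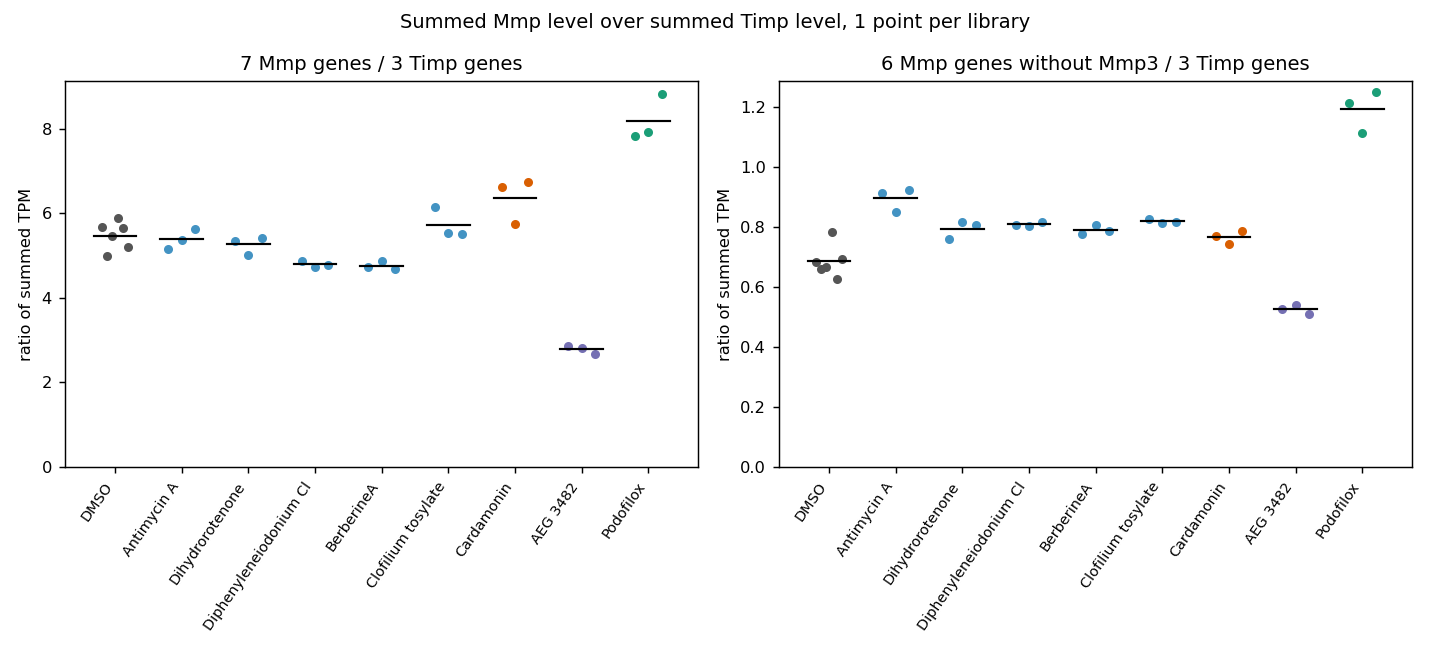
Summed TPM of the Mmp genes divided by the summed TPM of Timp1, Timp2 and Timp3, by group, with 1 point per library and a bar at the group mean, with Mmp3 (left) and without it (right). AEG 3482 is lowest in both panels, at 2.78 and 0.526, and Podofilox, whose Mmp12 level was the reason that gene was chosen, highest, at 8.20 and 1.19.

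Cardamonin and AEG 3482 were compared directly, without the DMSO means. Both had low Mmp3, Mmp9, Mmp13, Timp1 and Timp3, genes that also fell with every other compound tested. All 10 genes differed, 6 higher and 4 lower with Cardamonin, when 55.3% of all genes did (22.6% higher, 32.7% lower). Mmp12 differed most, 1.85 higher with Cardamonin (SE 0.117, adjusted p = 1.21e-12), at 60.0 against 15.8 TPM. Mmp3 was 0.77 higher (SE 0.0697, adjusted p = 8.68e-10), Mmp9 was 0.69 higher (adjusted p = 3.17e-06), and Mmp10 and Mmp13 were each 0.58 higher. All 3 inhibitors were lower with Cardamonin, Timp3 by a difference of -1.16 (SE 0.122, adjusted p = 1.12e-08), Timp1 of -0.55 (adjusted p = 0.000399) and Timp2 of -0.52 (adjusted p = 1.37e-08). Mmp2 was lower too (-0.56, adjusted p = 8.91e-06). Of these, the Mmp3 difference was 0.12 under quantile normalization (adjusted p = 0.307), which reads only the rank of the gene in each library. The Timp1 difference did not pass when only these 2 groups were fitted (adjusted p = 0.0681). The Mmp14 difference (0.21, adjusted p = 0.0394) was lost when Cardamonin replicate 1 (0.0685) or 2 (0.275), or AEG 3482 replicate 1 (0.0679) or 3 (0.132), was left out. The Mmp14 call was also lost without the filter (0.0955) and with 2 groups fitted (0.0979). Cardamonin replicate 3 was the lowest library of its group for 8 of the 10 genes.

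Antimycin A and Dihydrorotenone, which block different complexes of the respiratory chain, differed in 5 of the 10 genes, 3 higher and 2 lower with Antimycin A, when 15.5% of all genes did (11.6% higher, 3.91% lower). Mmp12 was 0.70 higher with Antimycin A (SE 0.117, adjusted p = 0.000122), Mmp10 was 0.51 higher (adjusted p = 0.0116) and Mmp14 was 0.30 higher (adjusted p = 0.0172). Mmp9 (-0.61, adjusted p = 0.000143) and Timp3 (-0.58, adjusted p = 0.00156) were lower. The Mmp10 and Mmp14 differences were lost without Dihydrorotenone replicate 1 (adjusted p = 0.0691 and 0.144) and under quantile normalization (0.0511 and 0.126). That replicate is the library with the other age label and the lowest of its group for 8 of the 10 genes. The Mmp14 difference was also lost without Antimycin A replicate 1 (0.0785) or 3 (0.0781) and with 2 groups fitted (0.0927). For Mmp3 the difference was -0.13 (95% interval -0.27 to 0.02), for Mmp13 -0.17 (-0.42 to 0.08) and for Timp1 -0.13 (-0.38 to 0.12).

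Over the 9 group means of log2(TPM + 1), Mmp3 and Mmp13 had a Pearson r of 0.952, and 0.946 over the 8 groups without Podofilox. Mmp10 and Mmp12 had an r of 0.968, and 0.692 without Podofilox. For Mmp9 and Mmp13 r was 0.784, and 0.973 without Podofilox, and for Timp1 and Timp3 it was 0.807 and 0.969. These values describe few points from 1 cell line and 1 scaling. By the same measure over 10483 protein-coding genes, the patterns most like the Mmp12 pattern were those of Spcs3 (r = 0.989) and Cfl2 (0.98). The Podofilox value, for which Mmp12 was chosen, weighs most in these, and without Podofilox r was 0.909 and 0.874. Those most like Mmp10 were Cd14, the lipopolysaccharide co-receptor (0.972, and 0.852 without Podofilox), and Atp8b1 (0.97, and 0.593). Mmp13 was most like Tnfsf11 (0.989), the osteoclast factor RANKL, and Pde4b (0.984), a cyclic AMP phosphodiesterase, and Mmp3 most like Zfp281 (0.978) and Pde4b (0.977). Tnfsf11 stood at 8.31 TPM with DMSO, 9.81 with Podofilox, 1.08 with Cardamonin and 0.301 with AEG 3482. Mmp9 was most like Msx2 (0.992) and D6Wsu163e (0.985), Mmp2 like Nbl1 (0.981) and Efs (0.977), and Mmp14 like Hhipl1 (0.978) and Clip4 (0.977). For the inhibitors these were Ptprk (0.986) and Zfp449 (0.984) for Timp1, Ankrd13a (0.979) and Aldoc (0.974) for Timp2, and Ifitm2 (0.988) and Wasf3 (0.983) for Timp3.

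Among the AP-1 subunits, cytokines and receptors that can induce metalloproteinases, 20 of 23 listed genes were tested. With AEG 3482, 10 were higher and 6 lower, beside 41.3% and 26.8% of all genes tested. With Cardamonin 9 were higher and 9 lower (37.3% and 33% of all genes), with Antimycin A 4 and 7 (21.8% and 15.5%), and with Dihydrorotenone 0 and 5 (4.95% and 9.43%). The extremes of the list were the cytokine Il6, at 14.6 ± 3.25 TPM with DMSO (SD, n = 6), 83.0 ± 14.4 with Podofilox (SD, n = 3) and 0, 0 and 0.389 in the AEG 3482 libraries (a change of -3.77, adjusted p = 3.32e-13), the growth factor Areg, which rose with Cardamonin by 2.77 (adjusted p = 3.27e-18), and the interleukin 1 receptor Il1r1, which fell by 2.75 on the log2 scale with Cardamonin (adjusted p = 2.86e-16). The AP-1 subunit Fosl1, named after its values were seen, rose with both Cardamonin (1.92, adjusted p = 3.27e-18) and AEG 3482 (1.79, adjusted p = 2.55e-17), where Mmp3 and Mmp13 fell. Its mean was 46.2 TPM with Podofilox and 31.6 with DMSO. The subunit Jund, named in the same way, had means of 141 TPM with Podofilox, 80.3 with AEG 3482, 60.35 with Cardamonin and 45.5 with DMSO. The part of the AP-1 subunits in the Mmp levels was not tested.

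The plasmin system and other activators, 14 of 17 genes tested, gave 3 higher and 9 lower with Cardamonin (37.3% and 33% of all genes), 2 and 9 with Antimycin A (21.8% and 15.5%), and 2 and 5 with AEG 3482 (41.3% and 26.8%). Plaur, the urokinase receptor, went from 6.85 to 24.0 TPM with Cardamonin (1.68, adjusted p = 5.53e-11), and Plau, urokinase, stood at 49.8 TPM with Podofilox against 25.4 with DMSO. Thbs1, the matrix glycoprotein thrombospondin 1, fell by 4.16 on the log2 scale with Cardamonin (adjusted p = 1.99e-18), from 792 to 44.3 TPM. Of the matrix substrates, 15 of 16 tested, 12 fell and 1 rose with Cardamonin, with a median of -0.91 beside 0.03 over all genes, and 7 fell and 4 rose with AEG 3482, with a median of -0.18 beside 0.10. The shares of all genes are those given for the activators. The proteoglycan Dcn fell by 1.72 with Cardamonin (adjusted p = 2.89e-16) and the basement membrane protein Nid2 by 3.02 (adjusted p = 1.96e-15). Col3a1, a fibrillar collagen, rose with AEG 3482 by 0.80 (adjusted p = 5.68e-08) and Nid1 by 1.34 (adjusted p = 1.4e-13). This group also had the lowest collagenase and stromelysin 1 transcript levels, and a link between these levels was not tested. All 10 fibroblast markers fell with Cardamonin (33% of all genes), with a median of -1.29, beside the falls of Timp1, Timp3 and Mmp2 there. With Antimycin A 8 fell and 1 rose (median -0.499), beside 15.5% of all genes lower and 21.8% higher. With AEG 3482 7 fell and 2 rose (median -0.529), beside 26.8% lower and 41.3% higher. With Dihydrorotenone and BerberineA 4 fell and 1 rose each, beside 9.43% and 9.16% of all genes lower and 4.95% and 12.6% higher. With Diphenyleneiodonium Cl and Clofilium tosylate 5 fell and 1 rose each, beside 11.7% and 12.5% lower and 14% and 10.9% higher. The part of these markers in the falls of Timp1, Timp3 and Mmp2 was not tested.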

How the data were processed

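Groups came from the agent label of each sample. The labels name 6 DMSO libraries, 1 more than the series text does, and all 6 were used. The authors quantified transcripts with kallisto 0.43.1 and named mm10, per the submitters' processing notes, and summed them per gene with tximport, per the series text. The transcript index is not given in the sources used here. The deposited table holds TPM made by the authors, for 29861 genes. Its listed genes sum to 92.7% to 93.7% of 1000000, and since TPM is relative, a change in abundant genes shifts all others.

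Gene IDs were matched to GENCODE M21 (GRCm38), which named 98.5% of them. Values were taken as log2(TPM + 1), which understates changes of low genes. Genes that reached 1 TPM in 3 or more libraries were fitted with limma 3.58.1 (R 4.3.3), all 9 groups in 1 model with an intensity trend, and adjusted by Benjamini-Hochberg within each comparison. The fit was tested on simulated data. Motifs were searched in RefSeq promoters, and shared 31-base stretches in the reference transcripts.

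The members and gene lists were chosen with earlier results of these data known. All 10 members are named. From each list, the 2 largest rises and 2 largest falls past the threshold over the 8 compounds are named, with at least 5 TPM in the higher group, and for each member the 2 protein-coding genes with the most similar group means. A gene that this rule would name is not reported here. Alternatives were a pseudocount of 0.1, no filter, a mean of at least 5 TPM, no trend, 3 other scalings, fits of 2 groups only, a replicate block, and each library left out. A fit with neither filter nor trend was added after seeing the data.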

Additional observations from a re-analysis of the deposited data

How the results depend on the processing

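Outside Podofilox against DMSO, where no test is given, 71 member changes passed the threshold. None of these changed direction under any alternative that was run, 54 passed under every one and 17 lost the call under at least 1. The count of changed members was 5 with Clofilium tosylate without a filter (8 in the report). Between Antimycin A and Dihydrorotenone it was 3 under quantile normalization, and 3 to 5 with single libraries left out (5 in the report). Without a filter the Mmp3 call was lost with Antimycin A, Dihydrorotenone, Diphenyleneiodonium Cl, BerberineA and Clofilium tosylate (adjusted p from 0.127 to 0.713), but not when the trend was dropped too (the largest 0.00181). Of 19 values that were not called, 7 changed sign under at least 1 alternative. Mmp10 with Dihydrorotenone was -0.00855 when rescaled without the 20 most abundant genes, and -0.0833 to 0.0802 with single libraries left out. Timp2 with Dihydrorotenone was 0.0351 under median-ratio scaling, 0.000318 with the replicate block, and -0.0352 to 0.034 with libraries left out. Mmp14 with Cardamonin was 0.0319 and Mmp2 with AEG 3482 0.0448 under quantile normalization. With libraries left out, Mmp12 with Antimycin A ranged from -0.0188 to 0.205, Mmp14 with Cardamonin from -0.168 to 0.0106, Timp2 with BerberineA from -0.0756 to 0.0297 and Timp2 with Diphenyleneiodonium Cl from -0.0516 to 0.017.

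The deviations of same-numbered libraries had a median r of 0.0071 over 108 pairs (from -0.107 to 0.151). Because these r values are low, the numbers are not read as pairs. Of 27 libraries, 14 correlated best with their own number. Whether this exceeds the count to be had without pairing was not tested. With the replicate block, over replicates 1 to 3, 9 members changed with AEG 3482, 8 with Cardamonin and 8 with Antimycin A. The shares of all genes called with the block were not computed. Without the block they were 68.1%, 70.3% and 37.3%. The block lost the calls of Mmp2 with Dihydrorotenone (adjusted p = 0.0573), Mmp10 with Cardamonin (0.0501) and Timp2 with Clofilium tosylate (0.0895). Sequencing depth is unknown, so what it limits cannot be given.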

Other observations

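Among the other metalloproteinases and Timp4, 11 of 17 genes were tested. With Cardamonin 2 rose and 6 fell, beside 37.3% and 33% of all genes, and with AEG 3482 2 rose and 6 fell, beside 41.3% and 26.8%. The genes differed in part: Mmp11 rose with Cardamonin (0.40, adjusted p = 0.0365) and fell with AEG 3482 (-0.52, adjusted p = 0.00756). Mmp11 (stromelysin 3) stood at 340 ± 111 TPM with DMSO (SD, n = 6) and at 1044 ± 80.5 with Antimycin A (SD, n = 3), a rise of 1.68 (SE 0.166, adjusted p = 1.19e-08). Every library of Antimycin A, between 952 and 1100 TPM, lay above the DMSO range of 213 to 477. Mmp11 also rose with Diphenyleneiodonium Cl (1.18, adjusted p = 6.11e-06), BerberineA (1.14, 1.38e-05), Clofilium tosylate (1.10, 2.06e-05) and Dihydrorotenone (0.95, 0.000325). Every library of these groups lay above the DMSO range too. Mmp11 overlaps Chchd10, a mitochondrial protein gene on the opposite strand, over 3367 bases. Mmp11 transcripts share 4.46% of their 31-base stretches with Chchd10, so reads from these stretches could be split between both genes. Chchd10 stood at 8.30 TPM with DMSO, 59.9 with Antimycin A and 93.6 with Cardamonin, where Mmp11 stood at 432. Mmp28 rose with Antimycin A by 0.59 (adjusted p = 6.13e-06), Mmp23 fell by 1.51 on the log2 scale with Cardamonin (adjusted p = 1.21e-15), and Mmp19 fell by 0.75 with AEG 3482 (adjusted p = 2.47e-11).

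Of the ADAM and ADAMTS proteases, several of which are blocked by Timp3, 13 of 14 were tested. With Antimycin A 6 were higher and 2 lower (21.8% and 15.5% of all genes), with Cardamonin 3 and 8 (37.3% and 33%), and with AEG 3482 4 and 6 (41.3% and 26.8%). Adam8 rose with AEG 3482 by 1.38 (adjusted p = 2.17e-13), from 60.0 to 158 TPM, and the aggrecanase Adamts15 with Antimycin A by 1.23 (adjusted p = 1.45e-07). Adamts4 fell by 2.13 on the log2 scale (SE 0.334, adjusted p = 3.38e-06) and Adam12 by 1.77 (SE 0.145, adjusted p = 4.32e-11) with Cardamonin. The Adamts4 libraries spread widely there, at 4.46 ± 4.10 TPM (SD, n = 3) against 19.5 ± 4.41 with DMSO (SD, n = 6).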
